A study of Sus scrofa with 12 samples.

Results

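Genes of the amino acid transporter families SLC1, SLC3, SLC6, SLC7, SLC36, SLC38 and SLC43 were followed in the liver of Jinhua (JH) and Landrace (LD) pigs. They are all listed genes whose symbol names a member of these families, 45 of the 31694 genes in the expression tables. The SLC6 family gave 15 genes, SLC7 gave 9, SLC38 gave 8, SLC1 gave 6, SLC36 gave 4, SLC3 gave 2 and SLC43 gave 1. The livers came from 3 JH pigs, a slow-growing Chinese breed that lays down much fat, and from 3 LD pigs, a fast-growing lean breed that serves as the control. All 6 animals were uncastrated males of 70 days of age with no treatment given in the labels, and each gave 1 mRNA library. The animals of a breed are separate pigs, and liver tissue was sequenced, so the values average over all cell types of the organ.

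Liver cells take up amino acids from the portal blood for protein synthesis, glucose production and urea formation, and release glutamine and other amino acids. The transporters differ in what they carry and in what drives them. Members of SLC1, SLC6 and SLC38 move their substrates together with sodium, SLC36 proteins use protons, and SLC43 proteins let large neutral amino acids pass down their gradient. SLC7 proteins are either cationic amino acid transporters that work alone or light chains that reach the membrane bound to a heavy chain of the SLC3 family. Some family members carry related molecules such as creatine, betaine or gamma-aminobutyric acid (GABA).

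Expression was measured as RPKM, the reads of a gene scaled to its length and to the total reads of the library, so levels can be set beside each other between genes. The totals that the deposited values were divided by could be recovered, and lay between 5744911 (JH1) and 7914517 (LD3) reads per library. Library JH3 had the highest level of the ribosomal RNA gene RN18S, 62257 RPKM, followed by LD3 with 20160 RPKM. The level was 5991 and 1570 RPKM in JH1 and JH2 and 7309 and 2108 RPKM in LD1 and LD2. The replicate numbers thus ranked alike in both breeds. The breeds were compared with limma on log2(RPKM + 0.1), for the 12993 genes that reached 0.5 RPKM in 3 or more libraries. Fold changes are given as JH over LD on this log2 scale, and for low genes they come out smaller than the change in RPKM. A gene was called when its p, adjusted by the method of Benjamini and Hochberg, was below 0.05 and its log2 fold change lay beyond 1 in either direction. Two-sided exact permutation tests of single genes cannot give a p below 0.1 with 3 pigs against 3. Of the 45 transporter genes, 22 passed the filter on low values and were tested. One of these, SLC6A20, passed through the LD libraries alone, since all 3 JH values were under 0.5 RPKM.

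The SLC38 family held most of the summed RPKM of the 45 listed transporter genes. Its summed level was 202, 199.7 and 178 RPKM in JH1, JH2 and JH3 and 286, 245 and 275 RPKM in LD1, LD2 and LD3, and it made up between 53.9% and 64.4% of the RPKM of all 45 genes. SLC38A4, a sodium-coupled neutral amino acid transporter of hepatocytes, had the highest mean over the 6 pigs, 116 RPKM. SLC38A3, which carries glutamine in and out of hepatocytes, followed with 81.1 RPKM. The remaining genes with a mean of at least 10 RPKM were SLC43A2 (33.5 RPKM), SLC6A12 (29.3 RPKM), SLC38A10 (29.3 RPKM), SLC3A2 (25.1 RPKM), SLC7A7 (18.1 RPKM), SLC6A8 (13.2 RPKM), SLC6A11 (12.4 RPKM) and SLC7A2 (10.3 RPKM). Means between 1 and 10 RPKM were found for 8 tested genes, and means below 1 RPKM for 4. In this order of 22 genes, 12 of the 21 neighbouring pairs overlapped in both breeds, 8 were apart in 1 breed, and only the step from SLC38A3 down to SLC43A2 was clear in both.

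**Figure D1:**
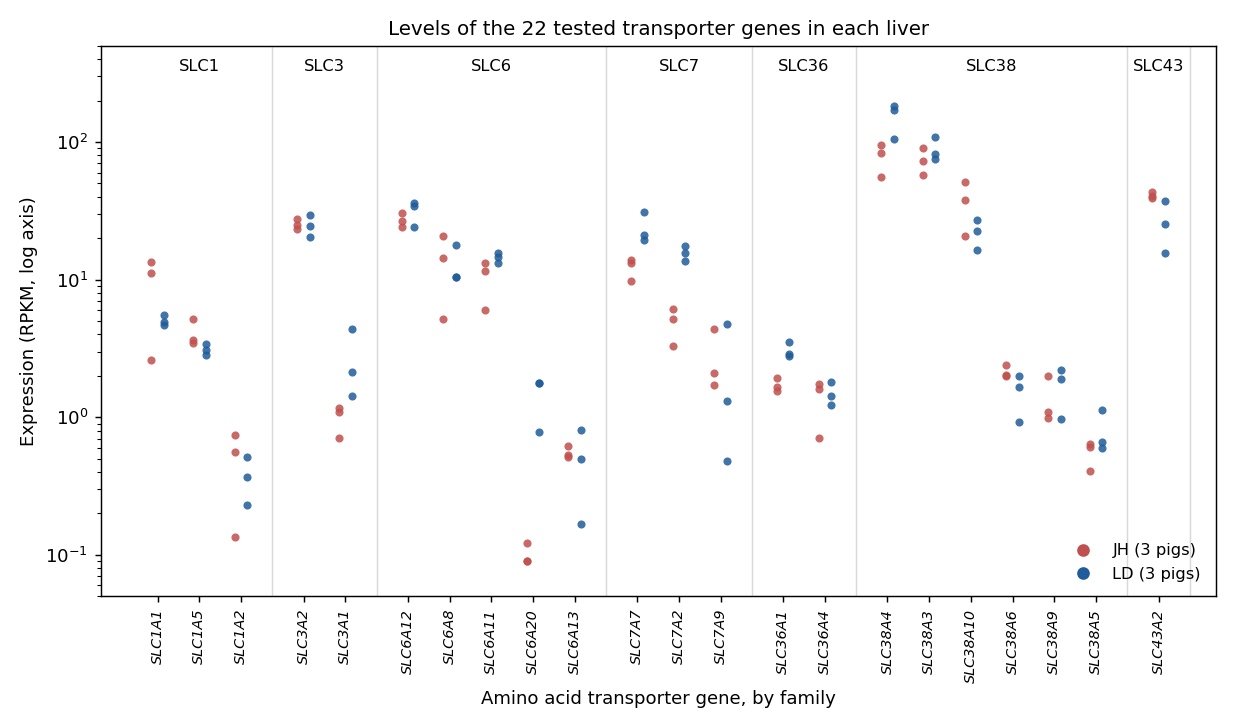
Each point is the level of a transporter gene in the liver of 1 pig (RPKM, log axis), with 3 JH pigs in red and 3 LD pigs in blue, for the 22 tested genes grouped by family and ordered by mean level within it. SLC38A4 and SLC38A3 stand at the top with means of 116 and 81.1 RPKM, and the JH and LD points of SLC7A2 and SLC6A20 lie furthest apart.

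Between the breeds, 2 of the 22 tested transporter genes were called, SLC7A2 and SLC6A20, and both were lower in JH. SLC6A20 could pass the filter only through LD, where it is high, so it had to differ and is left out of the counts that follow. The shares over all genes tested still include genes that passed through 1 breed alone. Of the other 21 tested genes 1 was called (4.76%), where 2.39% of all genes tested were called in either direction, 1.36% as lower in JH and 1.02% as higher in JH. No transporter gene was called higher in JH by limma or by voom on the recovered reads, and 1, SLC43A2, was higher in JH with an unadjusted p below 0.05. An unadjusted limma p below 0.05 was reached by 6 of 21 genes (28.6%), against 17.9% of all genes tested, and 5 of the 6 had a fold change below 0. The values of the breeds did not overlap for 8 of 21 genes (38.1%), 6 with JH below LD and 2 with JH above, against 23.4% of all genes tested. The log2 fold change was below 0 for 12 of the 21 genes and above 0 for 9. Its median was -0.20 over these transporter genes and 0.04 over all genes tested, of which 47.1% lay below 0. In whole liver, fewer cells of a type and less RNA per cell cannot be told apart.

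**Figure D2:**
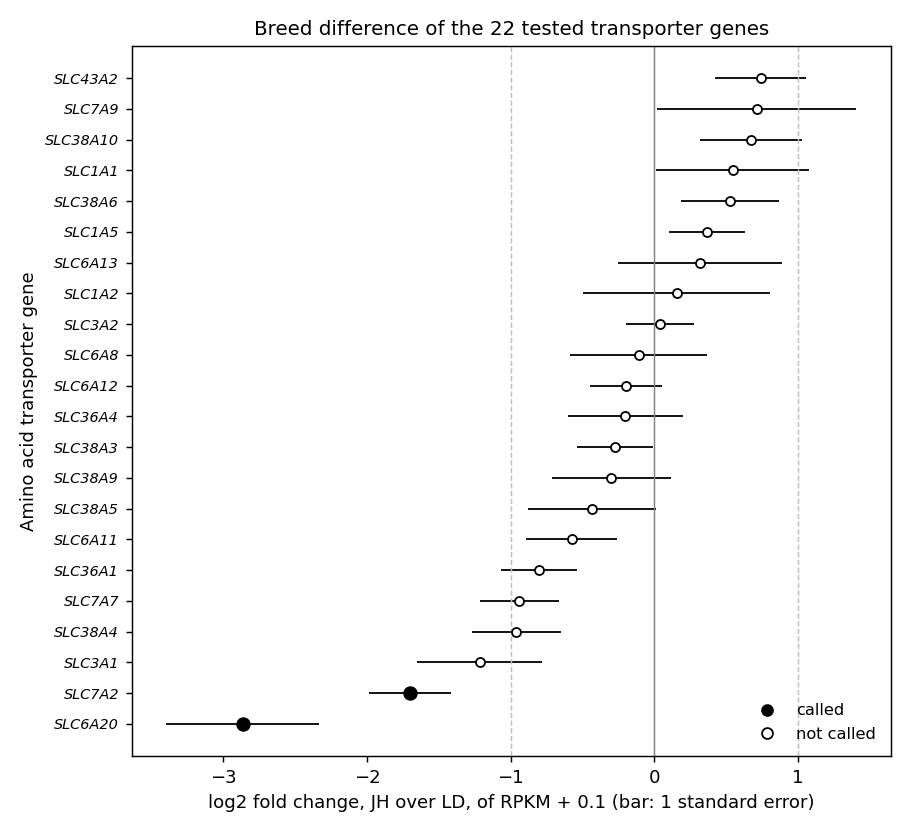
Log2 fold changes, JH over LD (horizontal axis, with bars of 1 standard error), are shown for the 22 tested transporter genes, ordered by value. Filled points mark the called genes SLC6A20 (-2.86) and SLC7A2 (-1.70), and dashed lines mark a log2 fold change of 1 in either direction.

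SLC7A2 encodes a cationic amino acid transporter (CAT2) that brings arginine, lysine and ornithine into liver cells. Its level was 5.18, 3.29 and 6.17 RPKM in JH1, JH2 and JH3, and 13.8, 17.5 and 15.7 RPKM in LD1, LD2 and LD3. The highest JH pig stayed below the lowest LD pig. The mean was 4.88 ± 1.46 RPKM in JH and 15.7 ± 1.86 RPKM in LD (SD, n = 3 each), 3.21 times as high in LD. JH over LD, the log2 fold change was -1.70 with a standard error of 0.29 (limma, adjusted p = 0.0224, two-sided exact permutation p = 0.1). Between 78 and 422 reads stood behind each of these values. The call was lost when JH2 was left out (limma, adjusted p = 0.0528), and likewise without LD1 (0.0789), LD2 (0.0868) or LD3 (0.0622), while the log2 fold change stayed between -1.89 and -1.45.

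SLC6A20 encodes a sodium-coupled transporter of proline and other imino acids. It was listed at 0.121, 0.0900 and 0.0902 RPKM in the JH pigs and at 0.786, 1.77 and 1.76 RPKM in the LD pigs. The fewest whole reads that fit these values were 1 in each JH library, and 8, 20 and 20 in LD1, LD2 and LD3. Per total reads, these summed to 3 reads in JH and 48 in LD, a ratio of LD over JH of 14.8. Its exact 95% interval of 4.78 to 74.5 covers counting error only. That interval would be narrower if more reads stood behind the same values. Since the gene entered the test only through its LD values, the test of it is a description and not support for a difference. On the log2 scale the fold change was -2.86 with a standard error of 0.53 (limma, adjusted p = 0.0336, two-sided exact permutation p = 0.1). The call rests on few reads and held without JH3 (limma, adjusted p = 0.0417) but not without JH1 (0.0518), JH2 (0.0655), LD1 (0.0736), LD2 (0.148) or LD3 (0.145).

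Some SLC6 transporters reach the cell surface of kidney and gut with the partner protein collectrin (TMEM27). TMEM27 overlapped between the breeds, with a log2 fold change of -0.93 (limma, adjusted p = 0.416), and its highest value was 11.3 RPKM in LD1.

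The light chain SLC7A7, which exchanges cationic for neutral amino acids at the basolateral membrane, was the SLC7 gene with the highest level. It had 9.71, 14.0 and 13.2 RPKM in the JH pigs and 31.2, 21.0 and 19.5 RPKM in the LD pigs. LD1 stood above the other LD pigs, and no JH pig reached an LD value. With a log2 fold change of -0.94 and a standard error of 0.28, the gene did not pass the adjusted threshold (limma, adjusted p = 0.124, two-sided exact permutation p = 0.1). The heavy chain that SLC7A7 pairs with, SLC3A2 (4F2hc), had 24.8, 27.8 and 23.4 RPKM in the JH pigs and 20.5, 29.5 and 24.5 RPKM in the LD pigs. These values overlapped, with a log2 fold change of 0.04 and a standard error of 0.24 (limma, adjusted p = 0.949), and the sign of this value turned with quantile normalization (-0.10). Within each pig, the ratio of SLC7A7 to SLC3A2 was 0.392, 0.504 and 0.565 in JH and 1.53, 0.714 and 0.795 in LD, so that the breeds did not overlap in this ratio.

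The other heavy chain, SLC3A1 (rBAT), pairs with the light chain SLC7A9 to take up cystine and cationic amino acids. SLC3A1 had 1.09, 0.703 and 1.17 RPKM in the JH pigs and 4.38, 1.43 and 2.12 RPKM in the LD pigs, with LD1 highest. Its log2 fold change was -1.21 with a standard error of 0.43 (limma, adjusted p = 0.187, two-sided exact permutation p = 0.1). SLC7A9 varied widely within both breeds, with 2.09, 4.36 and 1.70 RPKM in JH and 0.484, 4.79 and 1.30 RPKM in LD. LD1, the pig with the most SLC3A1, had the least SLC7A9, and the log2 fold change of 0.71 had a standard error of 0.69 (limma, adjusted p = 0.633). The ratio of SLC7A9 to SLC3A1 within a pig ran from 0.111 in LD1 to 6.20 in JH2.

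Within SLC38, the family of sodium-coupled neutral amino acid transporters, SLC38A4 was lower in each JH pig than in any LD pig. Its level was 55.8, 83.8 and 95.7 RPKM in JH and 184, 105 and 171 RPKM in LD. Its log2 fold change was -0.96 with a standard error of 0.31 (limma, adjusted p = 0.153, two-sided exact permutation p = 0.1), so the difference did not pass the threshold. The glutamine transporter SLC38A3 overlapped between the breeds, with 90.0, 73.4 and 57.3 RPKM in JH and 75.2, 109 and 81.8 RPKM in LD (log2 fold change -0.27). Together these genes made up 41.1%, 42.4% and 47.6% of the transporter RPKM in the JH pigs and 58.2%, 48.4% and 58.9% in the LD pigs. SLC38A4 exceeded SLC38A3 in all pigs but JH1 and LD2, where the ratio was 0.620 and 0.968.

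SLC38A10, a less studied member of the family, had 50.9, 38.2 and 20.8 RPKM in JH and 22.4, 26.9 and 16.4 RPKM in LD. With a log2 fold change of 0.67 it did not pass the threshold (SE 0.35, limma, adjusted p = 0.362), and its values overlapped between the breeds. Its ratio to SLC38A3, which also overlapped, was higher in every JH pig (0.363 to 0.565) than in any LD pig (0.201 to 0.299). How often ratios of other gene pairs keep the breeds apart was not tested. The lysosomal arginine sensor SLC38A9 had a mean of 1.53 RPKM and a log2 fold change of -0.30. SLC38A6 had a mean of 1.84 RPKM and a log2 fold change of 0.53, and the glutamine transporter SLC38A5 had a mean of 0.675 RPKM and a log2 fold change of -0.43. The neutral amino acid transporters SLC38A1 (SNAT1) and SLC38A2 (SNAT2) stayed under the filter. SLC38A1 had 0.117 to 0.173 RPKM (2 to 4 reads) in the JH pigs and 0.254 to 0.520 RPKM (6 to 11 reads) in the LD pigs. SLC38A2 had 0.179 to 0.186 RPKM (5 to 7 reads) in JH and 0.318 to 0.700 RPKM (11 to 27 reads) in LD. Neither overlapped between the breeds, and neither was tested.

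SLC43A2 (LAT4), which lets branched-chain and other large neutral amino acids pass, was the member with an unadjusted p below 0.05 whose level was higher in JH. It had 40.6, 43.3 and 39.0 RPKM in JH, a narrow range, and 25.3, 37.1 and 15.6 RPKM in LD. The highest LD pig lay just below the lowest JH pig. The log2 fold change was 0.74 with a standard error of 0.32 and did not pass the threshold (limma, adjusted p = 0.265, two-sided exact permutation p = 0.1).

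**Figure D3:**
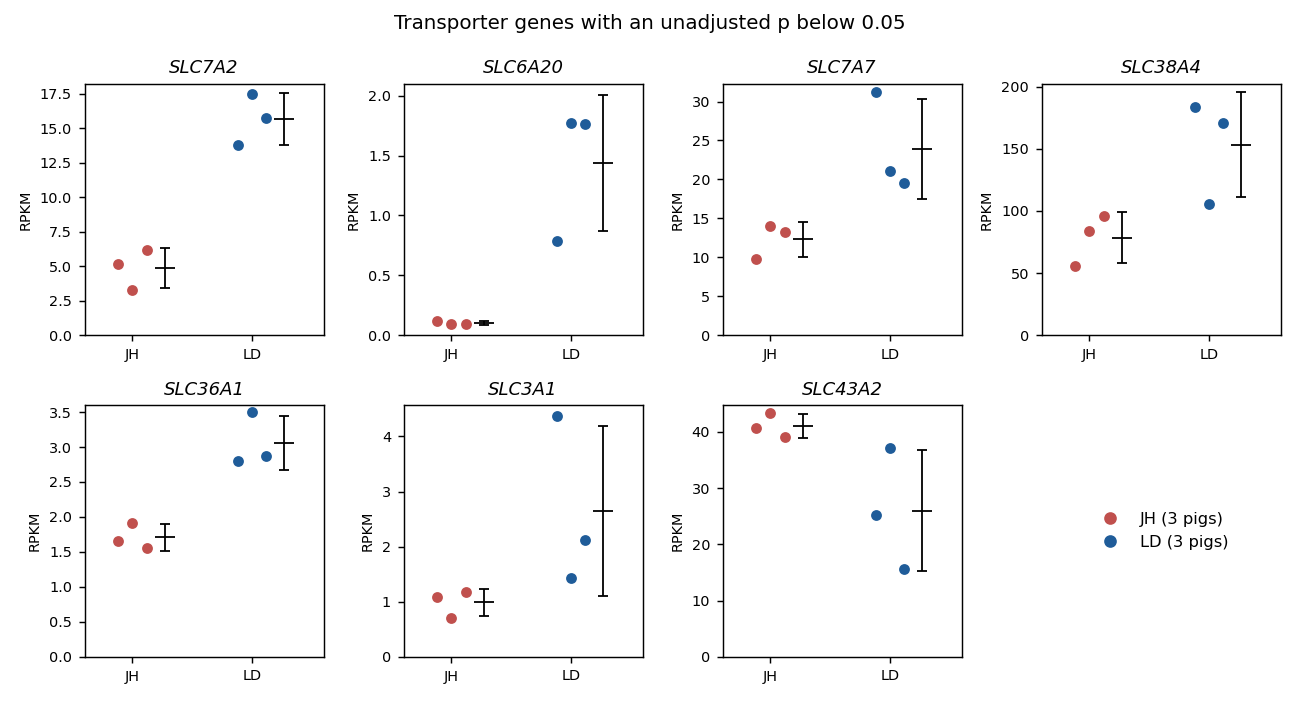
Levels in each pig (points, RPKM, linear axes from 0) with the mean and SD of each breed (black) are shown for the 7 transporter genes with an unadjusted limma p below 0.05. The JH and LD pigs did not overlap in any of the 7 panels, with JH higher for SLC43A2 and lower for the other 6. The lack of overlap is a description only, since the genes were picked by that p and SLC6A20 passed the filter through LD alone.

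Among the proton-coupled transporters, SLC36A1 (PAT1), which exports small neutral amino acids from lysosomes, had 1.65, 1.92 and 1.55 RPKM in JH and 2.80, 3.50 and 2.88 RPKM in LD. All JH pigs lay below all LD pigs, with a log2 fold change of -0.80 and a standard error of 0.26 (limma, adjusted p = 0.163, two-sided exact permutation p = 0.1). SLC36A4 had a mean of 1.42 RPKM and a log2 fold change of -0.20. SLC36A2 and SLC36A3 reached at most 0.543 and 0.0864 RPKM and were not tested.

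In the SLC6 family, the betaine and GABA transporter SLC6A12 was the gene with the highest level. It had 24.2, 30.5 and 26.7 RPKM in JH and 24.1, 35.9 and 34.3 RPKM in LD, values that overlapped (log2 fold change -0.20, SE 0.25, limma, adjusted p = 0.729). The GABA transporter SLC6A11 was lower in every JH pig, with 11.5, 13.2 and 5.99 RPKM against 13.2, 15.7 and 14.6 RPKM in LD. JH3 lay furthest below, JH2 and LD1 were nearly equal, and the log2 fold change was -0.57 (limma, adjusted p = 0.383). The creatine transporter SLC6A8 ran from 5.16 RPKM in JH3 to 20.7 RPKM in JH1 and overlapped between the breeds (log2 fold change -0.11). The GABA and taurine transporter SLC6A13 had a mean of 0.523 RPKM and a log2 fold change of 0.32. SLC6A12 lies beside SLC6A13 in the RefSeq gene order of Sscrofa11.1. The strand setting of the counting was not given in the sources used here.

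Among the SLC1 genes, the glutamate transporter SLC1A1 (EAAT3) had the highest level and varied widely within JH. It had 2.61, 11.2 and 13.4 RPKM in JH1, JH2 and JH3 and 5.50, 4.91 and 4.66 RPKM in LD. JH1 lay below every LD pig and the other JH pigs above, and the mean was 9.10 ± 5.73 RPKM in JH and 5.02 ± 0.43 RPKM in LD (SD, n = 3 each). The log2 fold change was 0.55 with a standard error of 0.53 (limma, adjusted p = 0.636). SLC1A5 (ASCT2), an exchanger of glutamine and small neutral amino acids, had 5.21, 3.47 and 3.61 RPKM in JH and 2.81, 3.10 and 3.40 RPKM in LD. The breeds did not overlap, but the log2 fold change of 0.37 did not pass the threshold (SE 0.27, limma, adjusted p = 0.506). The glutamate transporter SLC1A2 had a mean of 0.424 RPKM and a log2 fold change of 0.16.

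Summed by family, SLC7 had the lowest ratio of JH to LD. Its sum was 17.2, 22.0 and 21.7 RPKM in the JH pigs and 45.6, 44.2 and 36.9 RPKM in the LD pigs, with means of 20.3 ± 2.70 and 42.2 ± 4.68 RPKM (SD, n = 3 each). The log2 ratio of the mean sums was -1.06, and it was -1.20 without SLC7A7, its highest member. What remained was mostly the called gene SLC7A2, with means of 4.88 RPKM in JH and 15.7 RPKM in LD. SLC7A9 went the other way, with means of 2.72 RPKM in JH and 2.19 RPKM in LD, so the lower sum rested on SLC7A7 and SLC7A2. SLC38 also had all JH sums below all LD sums, with a log2 ratio of -0.48 that became -0.01 without SLC38A4. SLC36 sums were 3.06 ± 0.70 RPKM in JH and 4.84 ± 0.44 RPKM in LD (SD, n = 3 each), again without overlap. The sums of SLC1, SLC3 and SLC6 overlapped between the breeds, with log2 ratios of 0.69, -0.06 and -0.24. Without SLC3A2, the SLC3 sum is that of SLC3A1 and its log2 ratio was -1.42. These directions and overlaps of the tested genes' sums were kept with median scaling and with quantile normalization, except that SLC43A2 overlapped between the breeds after quantile normalization. Over all 45 genes the sum was 354, 371 and 321 RPKM in JH and 445, 442 and 429 RPKM in LD, and the log2 ratio of -0.33 became -0.08 without SLC38A4.

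**Figure D4:**
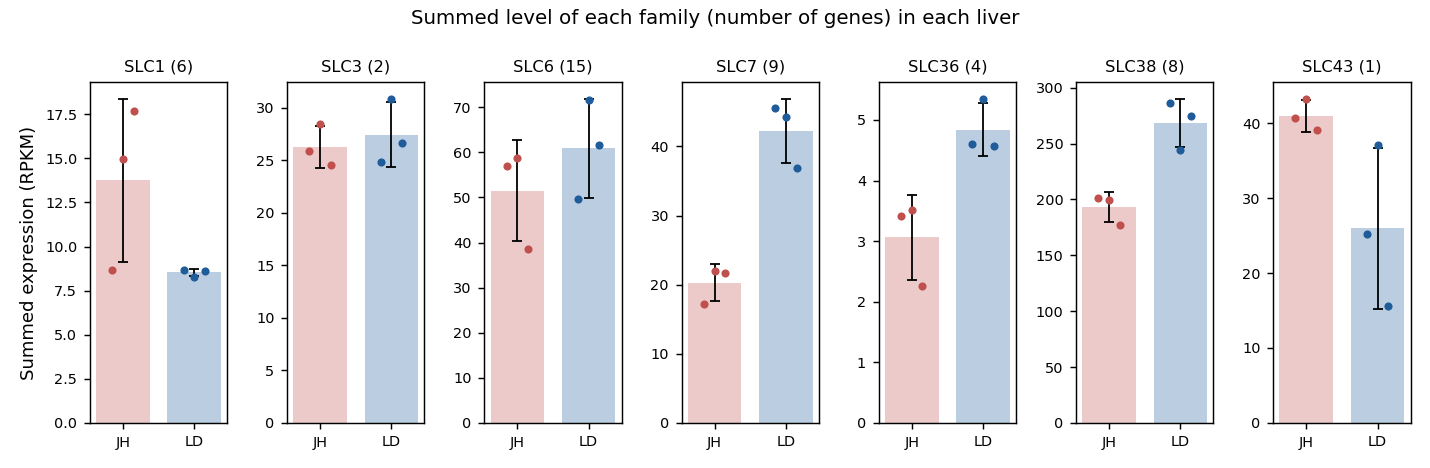
Summed RPKM of the genes of each family is shown for each pig (points), with bars for the mean of 3 pigs, error bars for the SD, the number of genes in brackets and a separate axis from 0 in each panel. The SLC7, SLC36 and SLC38 sums of the JH pigs lie below those of the LD pigs, and SLC43, which is SLC43A2 alone, lies above.

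The other 23 transporter genes did not pass the filter, and none reached 1 RPKM in any library. Of these, 9 were listed at 0 in all 6 libraries, among them SLC1A6, SLC6A5, SLC6A15, SLC6A18, SLC6A19, SLC7A10, SLC7A11 and SLC7A14. A listed 0 may not mean a silent gene, since APOB, a gene that hepatocytes use throughout life, was listed at 0 in every library too. The cationic transporter SLC7A1 had 0.126, 0.280 and 0.562 RPKM in JH and 0, 0.827 and 0.183 RPKM in LD. SLC7A4 reached at most 0.166 RPKM and SLC6A14 at most 0.127 RPKM. SLC1A7 was listed above 0 in each JH library (0.0602 to 0.0812 RPKM, at least 1 read each) and at 0 in each LD library. The remaining genes reached at most 0.0604 RPKM (SLC1A3), 0.0562 RPKM (SLC7A3), 0.0532 RPKM (SLC6A17), 0.0514 RPKM (SLC6A3), 0.0367 RPKM (SLC6A7) and 0.0330 RPKM (SLC6A2). RefSeq lists 58 pig genes with a symbol of these families, of which 45 are the genes described here and 13 are not. Of these 13, 5 stand in the tables under a numbered locus name, and the others were not found, so family sums leave them out. The tested one of these 5, SLC7A8 (LAT2), had a log2 fold change of -0.55 (limma, adjusted p = 0.482), and SLC6A9, a glycine transporter, had 0.255 to 0.344 RPKM in JH and 0.499 to 1.11 RPKM in LD. The fewest whole reads that fit the SLC6A9 values were 1 in each JH library and 4, 2 and 2 in LD1, LD2 and LD3. SLC7A5 (LAT1) and SLC38A11 were listed at 0, and SLC6A4 reached at most 0.122 RPKM.

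Further carriers and partner proteins were read from the same comparison, as a list of 18 genes of which 8 were tested. The peptide transporter SLC15A2 was the 1 called gene, and it was lower in JH, where 1.36% of all genes tested were called lower in JH. It had 5.25, 5.51 and 6.14 RPKM in JH and 17.9, 16.4 and 14.3 RPKM in LD (log2 fold change -1.51, SE 0.23, limma, adjusted p = 0.0135). The breeds lay far apart and varied little within each. The lysosomal transporter SLC15A4 had a log2 fold change of 0.75 that did not pass the threshold (limma, adjusted p = 0.198). The median log2 fold change of the 8 genes was -0.33. The call of SLC15A2 was lost without LD1 (limma, adjusted p = 0.0792) or LD2 (0.0592).

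Cells read the supply of amino acids through the mTORC1 complex on lysosomes and through the kinase GCN2, which raises the factor ATF4 and its target genes when amino acids run short. Of 47 genes listed for both arms, 31 were tested, and 3 were called, all higher in JH and all from the GCN2 and ATF4 arm, where 1.02% of all genes tested were called higher in JH. FGF21, a liver hormone among the ATF4 targets, had 23.1, 10.3 and 5.93 RPKM in JH and 0.475, 0.940 and 0.0852 RPKM in LD (log2 fold change 4.56, SE 0.66, limma, adjusted p = 0.0117). Asparagine synthetase (ASNS) had 4.11, 5.67 and 10.18 RPKM in JH and 1.39, 1.86 and 1.33 RPKM in LD (log2 fold change 1.97, limma, adjusted p = 0.0301). PHGDH, the first enzyme of serine synthesis, had 180, 58.2 and 79.7 RPKM in JH and 21.3, 33.0 and 12.1 RPKM in LD (log2 fold change 2.20, limma, adjusted p = 0.0480). No JH value of the called genes reached down to an LD value. FGF21 lost its call without LD1 (limma, adjusted p = 0.0539), ASNS lost it without JH2 (0.0656), LD1 (0.113), LD2 (0.0672) or LD3 (0.0796), and PHGDH lost it whichever library was left out (0.0532 to 0.147). With the replicate number as a block PHGDH was not called (limma, adjusted p = 0.0613), nor was it with a pseudocount of 0.01 RPKM (0.0607), without the filter (0.0763) or without a variance trend (0.0805).

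The same arm held 18 genes of the list, of which 10 were tested and 3 were listed at 0 in all 6 libraries. Of the 10 tested genes, 9 had a log2 fold change above 0, with a median of 0.95, where 52.9% of all genes tested lay above 0. The lists were chosen with earlier results of these data known, so these shares describe the genes and are not support for a difference. CEBPG (1.09, limma, adjusted p = 0.0521), TRIB3 (1.22, adjusted p = 0.0779) and EIF4EBP1 (0.81, adjusted p = 0.207) had an unadjusted p below 0.05 but did not pass the threshold. VLDLR also had an unadjusted p below 0.05 without passing the threshold, but it was lower in every JH pig than in any LD pig (log2 fold change -1.04, limma, adjusted p = 0.135). ATF4 itself had a log2 fold change of 0.66 (limma, adjusted p = 0.306). The glutathione-degrading enzyme CHAC1 had 0.411, 3.81 and 12.0 RPKM in JH and at most 0.0832 RPKM in LD, and it was not tested. SLC7A11 and SLC7A5, transporter genes known as ATF4 targets, were listed at 0, and the heavy chain SLC3A2 had a log2 fold change of 0.04. Whether the tested transporters follow ATF4 in these livers was not tested. In the mTORC1 arm, none of 21 tested genes was called by limma or by voom, and only LAMTOR3, a subunit of the lysosomal scaffold, had an unadjusted p below 0.05 (log2 fold change 0.83, limma, adjusted p = 0.140). The median of this arm was 0.13, with 11 genes above 0 and 10 below.

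**Figure D5:**
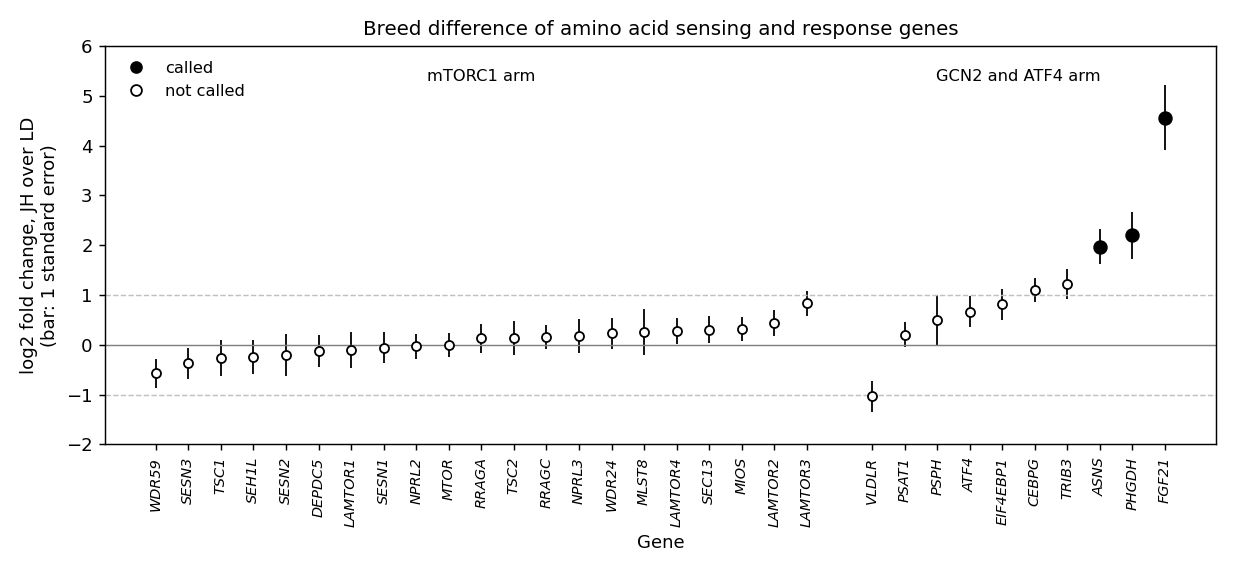
Log2 fold changes, JH over LD (vertical axis, with bars of 1 standard error), are shown for the 31 tested genes of the mTORC1 arm (left) and of the GCN2 and ATF4 arm (right), ordered by value within each arm. Filled points mark the called genes, FGF21 (4.56), PHGDH (2.20) and ASNS (1.97), all in the GCN2 and ATF4 arm, and dashed lines mark a log2 fold change of 1 in either direction.

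Of 21 liver genes that use the carried amino acids, 16 were tested and 2 were called, both lower in JH, where 1.36% of all genes tested were called lower in JH. Glutamine synthetase (GLUL), which marks the hepatocytes around the central vein, had 53.8, 42.1 and 72.7 RPKM in JH and 113, 194 and 135 RPKM in LD (log2 fold change -1.39, SE 0.30, limma, adjusted p = 0.0490). GLDC, which breaks down glycine, had 7.29, 11.4 and 14.7 RPKM in JH and 29.9, 31.9 and 27.8 RPKM in LD (log2 fold change -1.47, SE 0.29, limma, adjusted p = 0.0375). Neither gene overlapped between the breeds. The urea cycle enzyme ARG1 (1.14, limma, adjusted p = 0.182), the ornithine enzyme OAT (0.91, adjusted p = 0.194) and GCLC of glutathione synthesis (-0.81, adjusted p = 0.148) had an unadjusted p below 0.05 and did not pass the threshold. The median log2 fold change of the 16 genes was -0.41. Both calls held without JH3 alone, and without any of the other libraries the adjusted p in limma was 0.107 to 0.167 for GLUL and 0.0873 to 0.131 for GLDC. Both calls were also lost with the replicate block (limma, adjusted p = 0.0703 for GLUL and 0.0501 for GLDC), without the filter (0.0683 and 0.0520) and without a variance trend (0.0809 and 0.0647).

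Markers of other cell types moved with the breed in some lists. Over all genes tested, 2.39% were called, 17.9% had an unadjusted limma p below 0.05 and 23.4% did not overlap between the breeds. The 7 hepatocyte markers summed to 56935 to 69047 RPKM in JH and 71864 to 85280 RPKM in LD, with 6 tested, none called by limma and 4 with an unadjusted p below 0.05. Of these 4, ALB, TF and SERPINA1 were lower in each JH pig than in any LD pig, and APOA1 was higher (log2 fold change 0.90). The 6 stellate cell and fibroblast markers summed to 52.9 to 86.3 RPKM in JH and 169 to 330 RPKM in LD, and COL1A1, COL1A2 and COL3A1 were called lower in JH. DCN and RGS5 overlapped between the breeds (limma, adjusted p = 0.521 and 0.522). LUM was not called (limma, adjusted p = 0.143) and passed the filter through LD alone. COL1A1 kept its call whichever library was left out, COL3A1 lost it without LD1 (limma, adjusted p = 0.0811) or LD2 (0.0674), and COL1A2 without JH1 (0.116), JH3 (0.0688), LD1 (0.146) or LD2 (0.147). The 3 listed of 5 bile duct markers summed to 1.55 to 2.13 RPKM in JH and 5.24 to 9.64 RPKM in LD, with EPCAM called lower, a call that held only without JH3 when 1 library was left out (limma, adjusted p = 0.0566 to 0.111 without any of the others). The 5 listed of 6 erythroid markers summed to 92.3 to 124 RPKM in JH and 216 to 398 RPKM in LD, with HBB called lower, a call that likewise held only without JH3 (0.0888 to 0.143 without any of the others). None of the 5 endothelial or 5 lymphocyte markers, nor of the 3 tested macrophage markers, was called by limma or by voom, and 1 endothelial, 0 lymphocyte and 1 macrophage marker had an unadjusted p below 0.05. The endothelial markers summed to 150 to 254 RPKM in JH and 190 to 249 RPKM in LD, and the lymphocyte markers to 10.3 to 54.6 RPKM and 16.7 to 18.8 RPKM. Macrophage markers, with CD163 listed at 0, summed to 196 to 442 RPKM in JH and 367 to 574 RPKM in LD, a sum made up mostly of CD14 (log2 fold change -0.54). MARCO (0.60) and CSF1R (1.23, the macrophage marker with an unadjusted p below 0.05) had values above 0, and the median of the 3 tested macrophage markers was 0.60. Gut and kidney epithelium markers summed to at most 1.27 RPKM, with LRP2 listed at 0. CDX2 was called higher in JH, but it passed the filter through JH alone, and its call was lost whichever library was left out (limma, adjusted p = 0.0678 to 0.155). Neuron markers summed to at most 0.609 RPKM and were not tested. The part of these markers in the breed differences of SLC7A2, SLC6A20, SLC15A2, GLUL and GLDC was not tested.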

How the data were processed

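The authors filtered the reads of 6 liver mRNA libraries, aligned them to the pig genome with TopHat2 2.0.13, used gfold to count the reads of each gene. The deposited files hold the RPKM that the authors computed from these. The deposited small RNA libraries were not used here. Libraries were grouped by the breed in their labels. The members and lists were chosen with earlier results of these data known. Breeds were compared in limma 3.58.1 (R 4.3.3; lmFit, and eBayes with its trend option) on log2(RPKM + 0.1), keeping genes of 0.5 RPKM or more in 3 or more libraries, with Benjamini-Hochberg adjustment over all 12993 tested genes. The study's thresholds were kept, with limma in place of DEGseq, which pools reads. Single genes had two-sided exact permutation tests. Read numbers were recovered by searching for library totals and gene lengths that turn RPKM into whole reads, for 16756 of 19614 genes above 0 (85.4%). The smallest length that fits was taken, so each read number is the fewest that fits. Both the recovery and limma were tested on simulated data. Transporter genes were given in full where called, at an unadjusted p below 0.05 or highest in their family, and genes of the other lists were given in part. Alternatives were 3 other pseudocounts, filters, scalings, the variance trend, no fold change limit, voom on recovered reads, a replicate block and each library left out. Python 3.11.15, pandas 2.3.3, numpy 2.4.6, scipy 1.17.1 and matplotlib 3.10.9 were used. No sequences or coordinates are given, since the gene annotation at hand is of another build than the files. Some genes of the lists are not reported here.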

Additional observations from a re-analysis of the deposited data

How the results depend on the processing

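The count of 2 called transporter genes fell to 1 with a pseudocount of 0.01 RPKM, with a filter at 1 RPKM, which leaves SLC6A20 untested, and with the replicate number as a block (SLC7A2, limma, adjusted p = 0.0420, and SLC6A20, adjusted p = 0.0613). Leaving out 1 library gave 0 to 2. The 3 called sensing and response genes became 1 with no filter on low values, 5 with median scaling and 5 with voom on recovered reads, and 0 to 2 without 1 library, and with the replicate block the 3 called were ASNS, CEBPG and FGF21, not PHGDH. The 1 called carrier (SLC15A2) ranged from 0 to 1 without 1 library. The 2 called users of amino acids became 1 with a pseudocount of 0.01 RPKM, 0 with no filter, 1 with median scaling, 0 with the replicate block, 0 without a variance trend, and 0 to 3 without 1 library. The log2 fold change turned its sign for SLC3A2 with quantile normalization (-0.098), and without 1 library for SLC1A2 (-0.22 to 0.71), SLC3A2 (-0.090 to 0.17), SLC6A8 (-0.53 to 0.47), SLC6A13 (-0.17 to 0.71), SLC7A9 (-0.0090 to 1.52) and SLC36A4 (-0.42 to 0.18). The other 16 of 22 tested transporter genes kept their sign in every alternative run. Over all genes, 310 calls became 199 with a pseudocount of 0.01 RPKM, 200 with no filter, and 79 (without LD1) to 406 (without JH3) with 1 library left out. The causes were not tested. Replicate numbers are shared between the breeds, and RN18S ranked them in the same order in both. Over genes, which are not independent, same-numbered pigs deviated together only weakly (r from -0.02 to 0.18), and they were treated as sharing a number only. Whether same-numbered libraries were handled together is not given in the labels. Depth limits SLC6A20 most, where 1 read in each JH library is the fewest that fits, and reads are not independent molecules.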
